A study of Mus musculus with 14 samples.

Results

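The cadherins and the non-clustered protocadherins are calcium-dependent cell adhesion proteins, and their RNA was followed here in mouse hippocampus that had been homogenised directly or first dissociated with protease. All gene symbols of the deposited count table made of Cdh or Pcdh and a number (Pcdh11x included) were taken, except 2 that the selection leaves out. This gave 33 genes of 22485, namely 21 cadherins and 12 protocadherins, chosen by name. Enough counts for testing were found for 26 of them, 16 cadherins and 10 protocadherins.

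There were 14 libraries of wild-type C57BL/6 tissue from the hippocampal fields CA1 and CA3 and from the dentate gyrus (DG). Control tissue went straight into RNA isolation (3 libraries of CA1, 2 of CA3 and 2 of DG). Dissociated tissue (again 3, 2 and 2 libraries) was kept at room temperature for 75 min with pronase, a mixture of proteases, at 1 mg/ml, then vortexed, spun and pipetted apart in fluid with 1% FBS before the same isolation. The labels give no age or sex, and the authors' sample table lists 1 mouse for all 14 libraries. The p-values below therefore measure only the spread between tissue pieces of that animal. Since RNA was measured, cutting of the proteins at the cell surface by pronase is not seen in these values.

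Classical cadherins join like cells through repeated extracellular domains that need calcium, and hold on to the actin cytoskeleton through catenins on the inner side of the membrane. Type I members such as Cdh2 (N-cadherin) are spread along many synapses, while type II members differ between neuron types and are known for matching axons to their targets in the hippocampus. The delta protocadherins bind more weakly. Several of them recruit the WAVE complex, which drives actin branching, or regulate how much classical cadherin stays at a synapse.

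The 4 genes that differed between regions come first, and stretches before their start sites are shown to place them. Cdh6 and Cdh9 are neighbours in a chromosome 15 group of type II cadherins that also holds Cdh10, Cdh12 and Cdh18. The windows below run 5′ to 3′ on the strand of the gene, from RefSeq on GRCm38.p6, and lie at chr15:13173676-13173723 (minus strand, Cdh6) and chr15:16728676-16728750 (plus strand, Cdh9). Capitals mark a run of 15 bases that both genes share.
Cdh6: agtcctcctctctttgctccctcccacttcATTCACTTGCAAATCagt
Cdh9: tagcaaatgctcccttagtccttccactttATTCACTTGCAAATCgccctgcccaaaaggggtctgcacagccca
In Cdh6 the run ends 4 bases before the RefSeq start, and in Cdh9 it lies 209 to 195 bases before the RefSeq start. The start of Cdh9 in GENCODE M21 is another, and the run lies 50 to 36 bases before that one, while the starts of Cdh6, Pcdh8 and Pcdh10 are the same in both annotations. The run was taken as the longest stretch that Cdh6 and Cdh9 share, so both had to hold it. On either strand, no other gene of 27025 with an upstream window held it (2 of 27025, 0.0074%). Because of how the run was chosen, this share is no test of it. Among the 21 genes of the set that have a window (the 250 bases before the RefSeq start), 272 pairs of windows had a median longest shared run of 9 bases. The only other pair that reached 15 was Cdh26 with Pcdh7, whose shared run was made of T and C alone. Cdh6 and Cdh9 differed in opposite directions between CA1 and DG, as given below.

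The other 2 windows belong to the protocadherins Pcdh8 (chr14:79771322-79771389, minus strand) and Pcdh10 (chr3:45378252-45378319, plus strand), which also differed in opposite directions. Capitals mark the letters of the octamer, ATTTGCAT, in Pcdh8 and of a variant of the cAMP response element, TGACGTAA, in Pcdh10.
Pcdh8: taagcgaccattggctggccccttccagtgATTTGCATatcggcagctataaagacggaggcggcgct
Pcdh10: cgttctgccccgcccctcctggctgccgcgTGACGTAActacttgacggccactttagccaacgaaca
Both strands were searched. ATTTGCAT was found in the windows of 490 genes (1.81%) and, of the set, in Pcdh8. TGACGTAA was found in 142 genes (0.525%) and, of the set, in Pcdh10. The full element TGACGTCA was found in 478 genes (1.77%), none of them in the set. These matches describe letters in a window and nothing about binding, and the shares are no test of them.

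Depth and identity of the libraries bear on every value below. Totals ran from 1285654 to 6646655 estimated counts in control and from 65887 to 4782767 in dissociated libraries. The limit that a count of 0 allows (3 counts, counting error only) was thus between 0.451 and 45.5 CPM (counts scaled to a common library total, with TMM factors in what follows). Of the dissociated libraries, 3 held under 500000 counts, namely CA1 replicates 2 and 3 and DG replicate 3. In these, 16 of the 33 genes had any count, against 21 to 31 in the other 11. Another set of 3 libraries, which overlaps the first, went against their region label when 6 markers of CA1 pyramidal neurons were summed. The library labelled CA1 dissociated replicate 3 had a sum of 59.4 CPM against 1388 to 2453 CPM in the other CA1 libraries. Of 8 genes listed for CA2 and CA3 pyramidal cells, its Bok, Cpne4, Grik4 and Nptx1 stood at 205, 129, 168 and 1353 CPM, against 24.0, 10.7, 27.7 and 689 CPM at most in the other CA1 libraries. Its Amigo2 and Pcp4 stood at 6.6 and 3.3 CPM, while Iyd was at 0.0 and Rgs14, at 116 to 197 CPM in the other CA1 libraries, was also at 0.0. Bok, Cpne4, Grik4 and Nptx1 reached 209.6, 141.5, 140.5 and 1126 CPM in single DG libraries too. The libraries labelled CA3 control replicate 1 and CA3 dissociated replicate 1 had CA1 sums of 1915 and 1582 CPM. CA3 control replicate 4 and CA3 dissociated replicate 4 had 741 and 60.4 CPM. Not every marker in these sums was at a CA1 level. In the 2 replicate 1 libraries Fibcd1 stood at 829 and 735 CPM (498 to 587 in CA1 control) and Mpped1 at 545 and 422 CPM (446 to 499.5). Wfs1 stood at 178 and 142 CPM, below the 540 to 959 CPM of CA1 control, and was at 118 and 19.5 CPM in the 2 replicate 4 libraries. Sums of 10 markers of DG granule cells separated the DG libraries (877 to 2890 CPM) from all others (104 to 266 CPM). Below, the 3 libraries that went against their label are so named by the summed CA1 markers alone. Region calls of the family are given with and without them. Without them CA3 keeps only its replicate 4 libraries, 1 of control and 1 of dissociated tissue.

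Levels between genes can be compared only per transcript length, in TPM (transcripts scaled to a common total), and this was done in the 7 control libraries. Pcdh1, a delta-1 protocadherin known as an adhesion molecule of epithelia and brain, was the most abundant, with 228 ± 80.4 TPM (SD, n = 7). Its lowest control library, at 123 TPM, lay above the highest of Cdh11, the next in order. Cdh11, a type II cadherin best known from bone and mesenchyme, followed at 64.1 ± 15.2 TPM, then Pcdh8 at 62.8 ± 85.1, Pcdh20 at 60.6 ± 12.4, Cdh2 at 43.6 ± 7.76, Cdh8 at 36.5 ± 10.7, Pcdh10 at 35.2 ± 17.2 and Pcdh19 at 32.2 ± 21.9 TPM (SD, n = 7 each). From Cdh11 downward, the ranges of neighbours in this order overlapped in every case. The SD of Pcdh8 exceeded its mean because 1 DG library reached 254 TPM. Pcdh1 alone made up 15.5% to 39.4% of the summed TPM of the 33 genes in a library, with the 2 lowest shares in the DG libraries. At the other end, Cdh1 (E-cadherin, of epithelia), Pcdh12 (of blood vessels) and Cdh26 averaged 0.106, 0.0432 and 0.12 TPM.

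**Figure D1:**
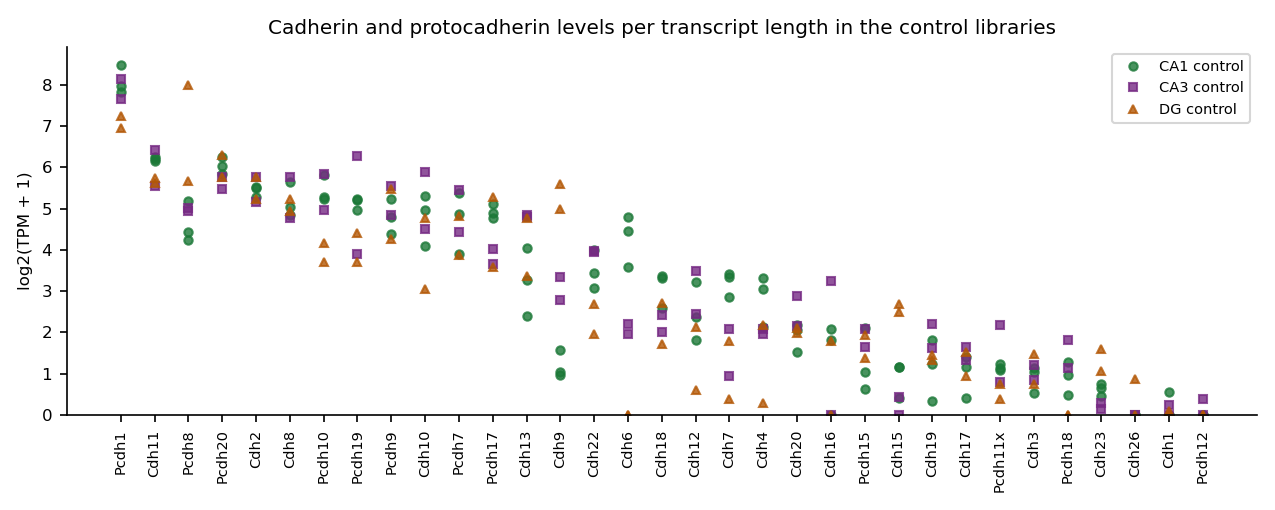
Level of each of the 33 genes in the 7 control libraries as log2(TPM + 1), ordered by mean TPM from left to right, with circles for CA1, squares for CA3 and triangles for DG. Pcdh1 has the highest mean, Pcdh8 exceeds it in 1 DG library, and Pcdh8 and Cdh9 have their highest points in DG and Cdh6 is at 0 in both DG libraries.

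The filter on low counts was not passed by 7 genes; it asks for about 10 counts in as many libraries as the smallest group holds. Their totals over all 14 libraries were 76 counts for Cdh3 (P-cadherin), 57 for Cdh17, 25 for Pcdh18, 17 for Cdh16, 10 for Cdh26, and 4 each for Cdh1 and Pcdh12. Pcdh18 had 25 counts in control libraries and 0 in dissociated ones. Pooled, this was 1.09 CPM against a limit of 0.313 CPM for 3 counts over the dissociated libraries, at least 3.48-fold lower after dissociation. Within regions the bounds were 2.17-fold in CA1 and 3.13-fold in CA3, and DG had 0 counts in control libraries too. These bounds cover counting error only, and the gene was not tested.

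All calls in the family lay between regions. Of 26 tested genes, 4 differed between CA1 and DG (edgeR, adjusted p under 0.05, termed called here), with Cdh6 and Pcdh10 higher and Cdh9 and Pcdh8 lower in CA1. Over all 13063 genes tested, 4.06% were called in that comparison (1.98% higher and 2.07% lower in CA1). Between CA3 and DG, 2 of 26 were called, Pcdh10 higher and Pcdh8 lower in CA3, against 1.77% of all genes (0.888% higher and 0.88% lower). None was called between CA1 and CA3 (0.115% of all genes), where 3 of 26 had an unadjusted p under 0.05 (11.5%, against 5.37% of all genes). DESeq2 also called 0 there (0.482% of all genes). The comparisons share libraries: the DG libraries serve in both contrasts with DG.

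Cdh6, a type II cadherin known from the developing kidney and from subsets of neurons, was highest in CA1. Its values were 30.4, 12.6 and 22.8 CPM in CA1 control and 8.68, 0.0 and 0.0 CPM in CA1 dissociated replicates 1, 2 and 3. In CA3 they were 3.89 and 3.75 CPM in control and 1.65 and 0.0 CPM in dissociated libraries. All 4 DG libraries had 0 counts. The CA1 libraries together held 242 counts (14.7 CPM pooled), at least 39.4-fold higher than the 0.373 CPM that 3 counts over the DG libraries would be (edgeR adjusted p = 0.00308). Among control libraries alone the bound was 44.6-fold, from 204 counts. CA3 held 21 counts and was at least 7.02-fold higher than DG, with an edgeR adjusted p of 0.0706. The bounds follow the depth of DG control replicate 3, and without its counts they were 9.56-fold for CA1, 7.78-fold for CA1 control against DG control and 1.7-fold for CA3. CA1 exceeded CA3 by 2.41 ± 0.83 on the log2 scale (SE, edgeR adjusted p = 0.57), a difference that was not called.

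Cdh9, its chromosome 15 neighbour and a cadherin known for the synapses that DG granule cells make on CA3 neurons, had the opposite order. CA1 control libraries had 1.34, 1.48 and 2.69 CPM, and CA3 control libraries 12.1 and 9.58 CPM. DG control libraries had 48.4 and 71.7 CPM. After dissociation the values were 6.17, 0.0 and 56.1 CPM in CA1, 3.7 and 31.6 CPM in CA3 and 15.6 and 77.7 CPM in DG. In control tissue the 3 regions did not overlap, and the share of all genes that did the same was not counted. The CA3 control library at 12.1 CPM (replicate 1) is among the 3 that went against their label. The CA1 library at 56.1 CPM is the one whose CA1 markers were nearly missing. Cdh9 was lower in CA1 than in DG by 3.44 on the log2 scale (log2 fold change −3.44 ± 0.78 SE, edgeR adjusted p = 0.011), and by −4.31 without the 3 libraries that went against their label. CA3 against DG gave −2.31 ± 0.77 (SE, edgeR adjusted p = 0.146).

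Pcdh8, also called arcadlin, is a delta-2 protocadherin induced by neuronal activity and known to promote removal of N-cadherin from synapses. It had the smallest p of the family in both contrasts with DG and was highest there. DG control replicates 2 and 3 had 99.0 and 472 CPM, and DG dissociated replicates 3 and 4 had 125 and 590.2 CPM. CA1 had 35.3, 63.4 and 28.7 CPM in control and 37.9, 116 and 62.7 CPM in dissociated libraries, and CA3 had 52.0 and 60.0 CPM in control and 39.9 and 85.5 CPM in dissociated libraries. All CA3 libraries lay below all DG libraries, while 1 dissociated CA1 library (replicate 2) lay above the lowest DG library. The fold change was −2.69 ± 0.42 for CA1 minus DG and −2.50 ± 0.47 for CA3 minus DG (log2, SE, edgeR adjusted p = 0.000536 and 0.00625). Within DG the 2 libraries of highest Pcdh8, control replicate 3 and dissociated replicate 4, were also those with granule cell sums of 2890 and 2667 CPM, against 877 and 983 CPM in the other 2. The part of granule cell content in the Pcdh8 values was not tested, and in bulk tissue fewer cells of a type and less RNA per cell cannot be told apart.

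Pcdh10, a delta-2 protocadherin that binds the WAVE component Nckap1, was lowest in DG. Its values were 128, 119.6 and 156 CPM in CA1 control, 162 and 120.4 CPM in CA3 control and 66.7 and 34.4 CPM in DG control libraries. Dissociated libraries had 106, 68.4 and 79.2 CPM in CA1, 90.5 and 134 CPM in CA3 and 109 and 13.2 CPM in DG. Both control libraries of DG lay below all libraries of CA1 and CA3, and the DG dissociated library at 109 CPM, the shallowest of all, did not. The log2 fold change was 1.40 ± 0.38 for CA1 minus DG and 1.60 ± 0.41 for CA3 minus DG (SE, edgeR adjusted p = 0.0397 and 0.0429).

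**Figure D2:**
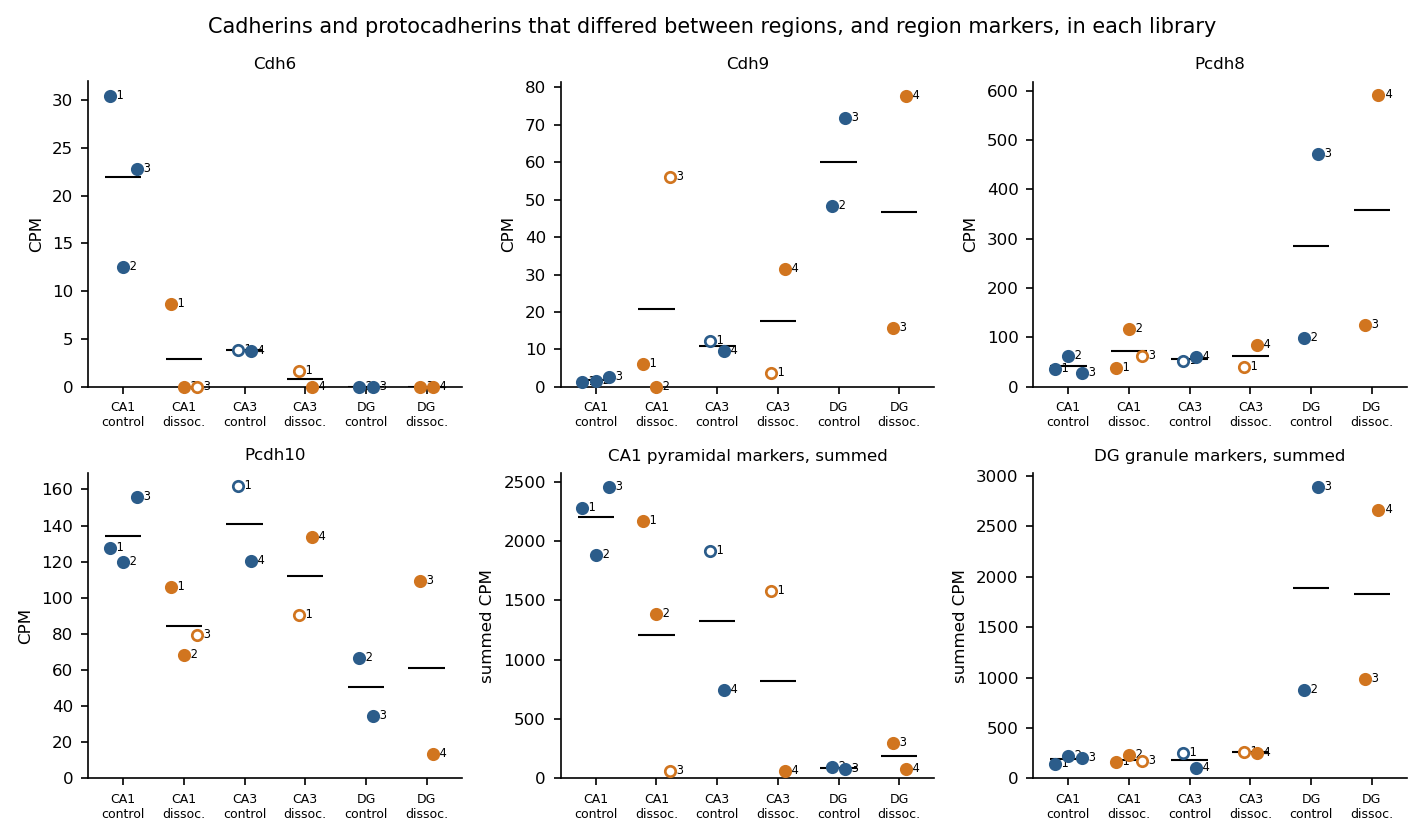
CPM of Cdh6, Cdh9, Pcdh8 and Pcdh10, and the summed CPM of 6 CA1 pyramidal and 10 DG granule markers, in each of the 14 libraries by region and treatment. Points are libraries with their replicate number, lines are group means, and open points are the 3 libraries whose markers went against their label; Pcdh8 reaches 472 and 590.2 CPM in the 2 DG libraries with the highest granule sums.

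These region calls differ in how much they rest on single libraries. Without the 3 libraries that went against their label, all 4 calls between CA1 and DG remained, and neither call between CA3 and DG did. That fit leaves CA3 with 1 control and 1 dissociated library. It therefore cannot tell a loss of calls through fewer CA3 libraries from one through the libraries left out. Without DG control replicate 3, the deepest DG library, Pcdh8 stayed called between CA1 and DG (adjusted p = 0.0149), while Cdh6 (0.0667), Cdh9 (0.0777) and Pcdh10 (0.203) did not, nor did Pcdh8 between CA3 and DG (0.0746). Cdh9 also missed the threshold between CA1 and DG without CA1 control replicate 2 or 3 (adjusted p = 0.053 and 0.0502). The Pcdh10 call between CA1 and DG held in 8 of 14 fits that each left out 1 library. It was lost without any 1 of the 3 CA1 control libraries, DG control replicate 3, CA1 dissociated replicate 1 or DG dissociated replicate 4. Between CA3 and DG it held in 5 of 14, and was lost without any CA1 or CA3 control library, either CA3 dissociated library, DG control replicate 3 or DG dissociated replicate 4. Leaving out the library labelled CA1 dissociated replicate 3 instead added Cdh6 and Cdh9 to the calls between CA3 and DG (adjusted p = 0.043 and 0.0368). In control libraries alone, the 2 genes called between CA3 and DG were Cdh6 and Cdh9 in place of Pcdh8 and Pcdh10.

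**Figure D3:**
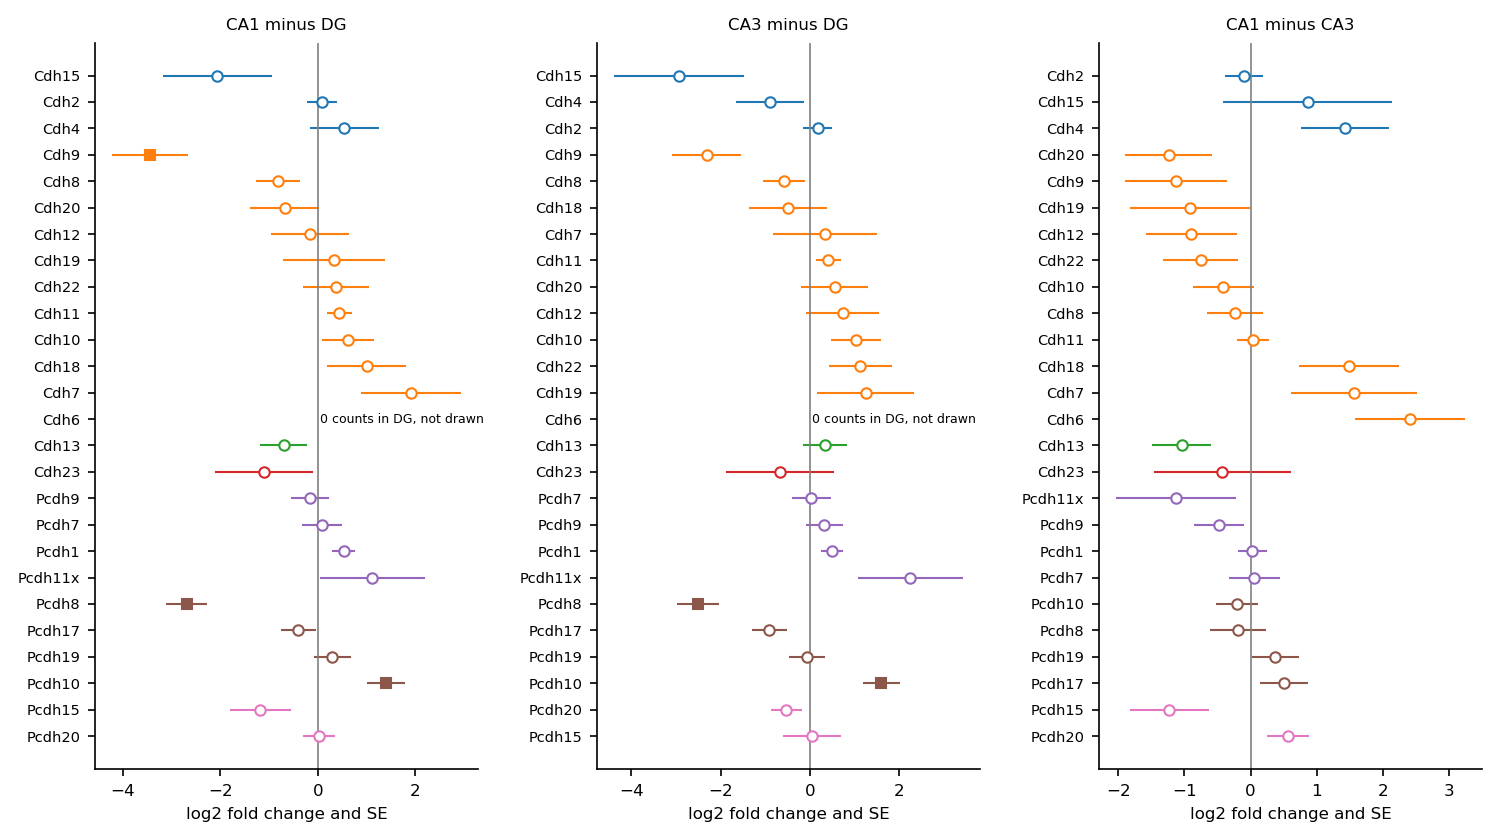
Log2 fold change (point) and SE (bar) of the 26 tested genes for CA1 minus DG, CA3 minus DG and CA1 minus CA3, with filled squares for adjusted p under 0.05 and colours for the cadherin and protocadherin classes. Pcdh8 and Pcdh10 are filled in both contrasts with DG, Cdh9 in the first, and Cdh6 is not drawn against DG because DG had 0 counts.

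The regional differences of the other genes of the family were not called. Of 26 genes, 15 had a positive log2 fold change for CA1 minus DG, with a median of 0.09 against −0.04 over all genes tested, and 16 for CA3 minus DG, with a median of 0.25 against 0.04. All 4 delta-1 protocadherins were on the positive side of CA3 minus DG (0.03 to 2.25), and the 3 tested type I cadherins gave −2.92 to 0.18. Over all libraries of a region, 0 genes of the set had separate ranges in CA1 and DG (1.87% of all genes were higher and 1.59% lower in every CA1 library). Between CA3 and DG, Cdh19 and Pcdh1 were higher and Pcdh8 lower in every CA3 library (3.74% and 1.93% of all genes). Cdh19 had 4.17 to 5.83 CPM in CA3 and was at 0 in both DG dissociated libraries, where 3 counts would be 45.5 and 5.01 CPM. The first limit exceeded every CA3 value and the second the lowest (edgeR adjusted p = 0.727 for Cdh19). Cdh4 (R-cadherin, of type I) was higher in every CA1 than in every CA3 library and 0 genes were lower (0.375% and 1.26% of all genes). Its log2 difference between CA1 and CA3 was 1.43 ± 0.67 (SE, edgeR adjusted p = 0.892). Without the 3 libraries that went against their label, the log2 differences between CA1 and CA3 were −2.51 ± 0.61 for Cdh9 and 1.44 ± 0.40 for Pcdh19 (SE). Neither was called, and CA3 then held only 1 control and 1 dissociated library.

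Dissociation, compared across the 3 regions, gave 0 calls among the 26 tested genes, while 0.773% of all 13063 genes were called. Log2 fold changes were positive for 9 and negative for 17 genes, with a median of −0.26 against −0.11 over all genes tested. Among cadherins 6 were positive and 10 negative (median −0.18), and among protocadherins 3 and 7 (median −0.32). An unadjusted p under 0.05 was reached by 2 of 26 (7.69%, against 12.4% of all genes), namely Pcdh15 and Cdh6. DESeq2 called 1 of the 26, Pcdh15, and 3.66% of all genes.

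Pcdh15, which with Cdh23 forms the tip links of sensory hair cells and is also known from oligodendrocyte precursors, had the smallest p. Control libraries had 5.37, 3.41 and 1.79 CPM in CA1, 5.34 and 12.1 CPM in CA3 and 11.7 and 6.4 CPM in DG. Dissociated libraries had 12.6, 41.0 and 0.0 CPM in CA1, 25.9 and 38.1 CPM in CA3 and 15.6 and 34.7 CPM in DG. Every dissociated library but the library labelled CA1 dissociated replicate 3 exceeded every control library. The value of 15.6 CPM is that of 1 count in the shallowest library. The log2 fold change was 1.88 ± 0.52 (SE, edgeR adjusted p = 0.0972). Without the library labelled CA1 dissociated replicate 3 it was 2.06 and called (edgeR adjusted p = 0.0319), as it was by DESeq2 (1.98, adjusted p = 0.000784) and with no filter on low counts (1.89, edgeR adjusted p = 0.0189). By region the estimates were 2.01, 1.86 and 1.74 in CA1, CA3 and DG, and their difference was not called (edgeR adjusted p = 0.996 for the interaction).

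Markers of oligodendrocyte precursors were also higher after dissociation. Across regions all 6 of this list had positive fold changes (median 1.44), and 3 were called (Olig1, Olig2 and Pdgfra), against 0.773% of all genes. Within regions 6 were positive in CA1, 6 in CA3 and 4 in DG. The summed level of the 6 was 110.1 to 328 CPM in control and 288 to 829 CPM in dissociated libraries. None of the 6 was at 0 in a control library, and Gpr17 was at 0 in CA1 dissociated replicate 2 and DG dissociated replicate 3. Of 14 markers of oligodendrocytes 10 were called higher (sums of 670 to 4083 CPM in control and 1573 to 13541 CPM in dissociated libraries), and of 12 microglial markers 7 (295 to 514 and 605 to 2346 CPM). Their part in the Pcdh15 values was not tested.

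**Figure D4:**
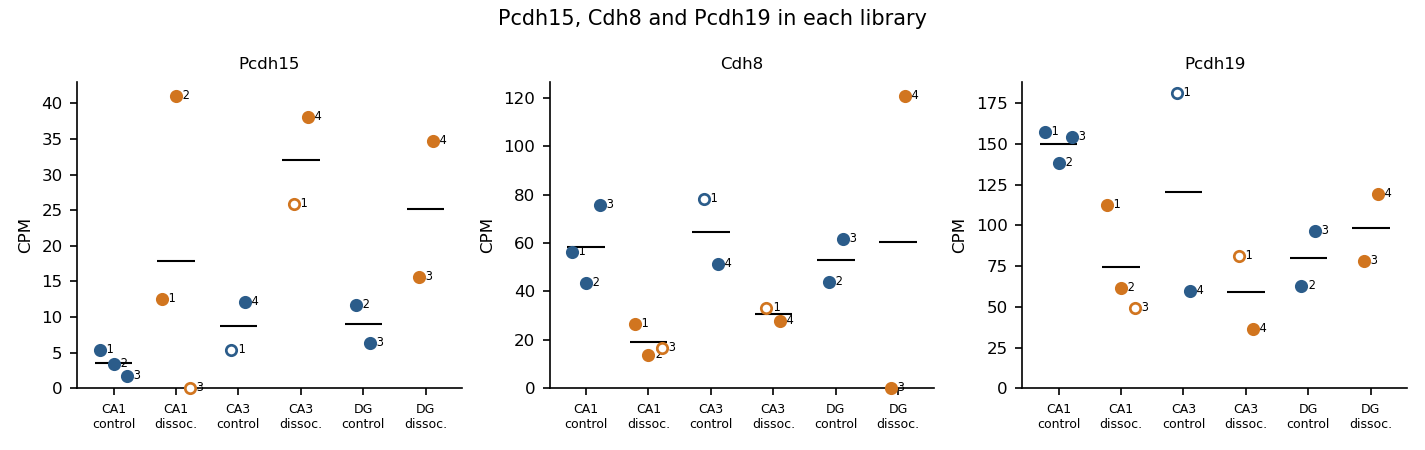
CPM of Pcdh15, Cdh8 and Pcdh19 in each of the 14 libraries by region and treatment, with replicate numbers, group means as lines and open points for the 3 libraries whose markers went against their label. Pcdh15 is higher in 6 of 7 dissociated libraries than in any control library, while Cdh8 lies below its control range in CA1 and CA3 and spreads from 0.0 to 121 CPM in DG.

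Cdh6 had the next smallest p, with a log2 fold change of −2.01 ± 0.78 (SE, edgeR adjusted p = 0.298). By the values given above, all dissociated libraries of CA1 and of CA3 lay below the control libraries of the same region. The 2 shallow CA1 libraries at 0 had limits of 22.2 and 9.97 CPM, so that the first 0 does not exclude the lowest control value of 12.6 CPM. The second is the library labelled CA1 dissociated replicate 3, whose summed CA1 markers stood at 59.4 CPM. The part of its region content in that 0 was not tested. Without the 3 shallow libraries the fold change was −1.50 (edgeR adjusted p = 0.503).

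Cdh8, a type II cadherin known for target choice of axons and linked to autism, had 56.4, 43.7 and 75.7 CPM in CA1 control and 26.7, 13.7 and 16.5 CPM in CA1 dissociated libraries. CA3 went from 78.2 and 51.3 CPM to 33.3 and 27.9 CPM. DG had 44.0 and 61.6 CPM in control and 0.0 and 121 CPM in dissociated libraries, the first being the library of 65887 counts. Groups did not overlap in CA1 or CA3, and in DG they did. The log2 fold change across regions was −0.72 ± 0.37 (SE, edgeR adjusted p = 0.441). Without DG dissociated replicate 4 it was −1.34 and called (edgeR adjusted p = 0.0229).

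Pcdh19, a delta-2 protocadherin that pairs with N-cadherin and is mutated in a form of epilepsy, had 157, 139 and 154 CPM in CA1 control and 113, 61.6 and 49.5 CPM in CA1 dissociated libraries. CA3 had 181 and 60.0 CPM in control and 81.4 and 36.3 CPM in dissociated libraries, and DG had 63.0 and 96.5 CPM against 78.0 and 119 CPM. Groups were separate in CA1 and overlapped in CA3 and DG. Across regions the log2 fold change was −0.60 ± 0.30 (SE, edgeR adjusted p = 0.423). Cdh9 gave 1.31 ± 0.64 (SE, edgeR adjusted p = 0.406), 0.89 without the 3 shallow libraries and 0.64 without the library labelled CA1 dissociated replicate 3 (edgeR adjusted p = 0.607).

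None of the most abundant genes was called for dissociation. Pcdh1 had 508, 460.4 and 557 CPM in CA1 control and 329.7, 280.4 and 495 CPM in CA1 dissociated libraries. CA3 had 509 and 455 CPM against 364 and 392 CPM, and DG 355 and 258 CPM against 265 and 322 CPM. Its groups were separate in CA3 and overlapped in CA1 and DG, and its log2 fold change was −0.31 ± 0.18 (SE, edgeR adjusted p = 0.509). Cdh2, the main type I cadherin of synapses, had 69.8, 86.9 and 84.6 CPM in CA1 control and 69.7, 103 and 175 CPM in CA1 dissociated libraries. CA3 had 93.2 and 76.7 CPM against 123 and 117 CPM, and DG 118 and 74.0 CPM against 46.8 and 84.3 CPM. Cdh2 was higher without overlap in CA3 alone, and its log2 fold change across regions was 0.28 ± 0.25 (SE, edgeR adjusted p = 0.691), with the opposite sign on log2(TPM + 1), a scale on which the median of all genes was −0.64.

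Cdh11 had 178, 185 and 183 CPM in CA1 control and 117, 129.9 and 228 CPM in CA1 dissociated libraries. CA3 had 204 and 134 CPM against 136 and 186 CPM, and DG 147 and 131 CPM against 78.0 and 122 CPM. Only the DG groups were separate, and the log2 fold change was −0.21 ± 0.21 (SE, edgeR adjusted p = 0.729). Pcdh20 had 146, 124 and 122 CPM in CA1 control and 59.8, 129.9 and 221 CPM in CA1 dissociated libraries. CA3 had 90.8 and 128 CPM against 72.4 and 67.9 CPM, and DG 127 and 175 CPM against 46.8 and 131 CPM. Its log2 fold change was −0.33 ± 0.27 (SE, edgeR adjusted p = 0.644), and the groups were separate in CA3. For Cdh11, Cdh2 and Pcdh20 the highest CA1 value was that of the library labelled CA1 dissociated replicate 3.

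**Figure D5:**
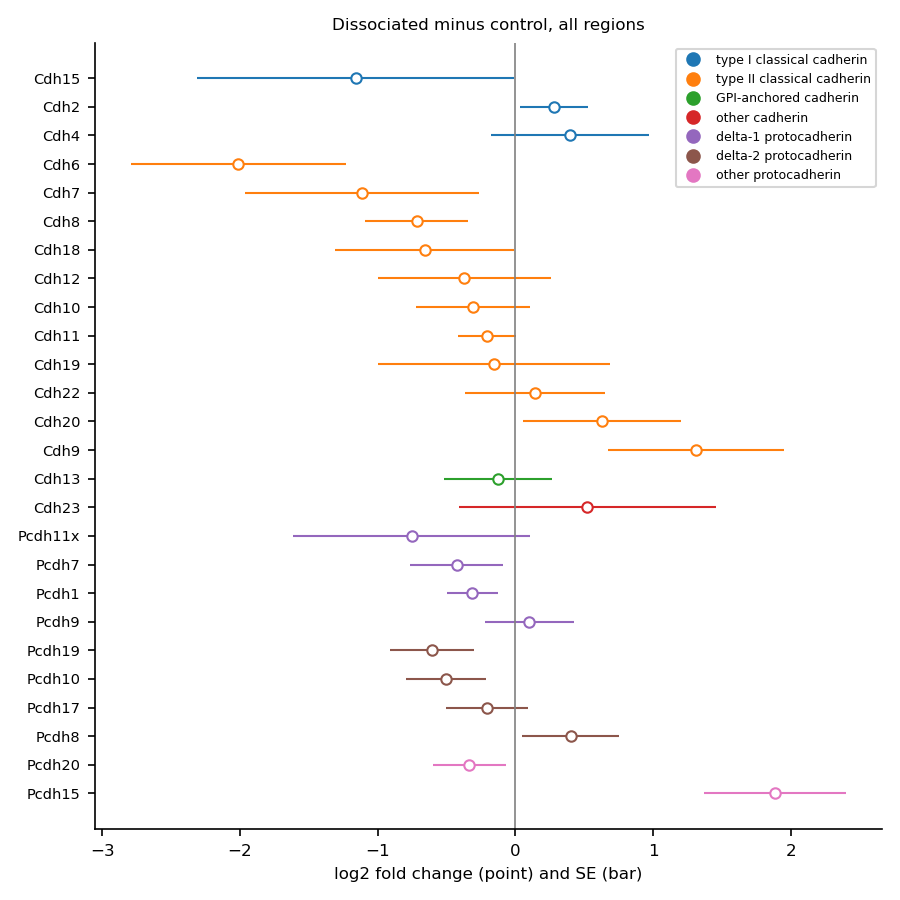
Log2 fold change (point) and SE (bar) of dissociated minus control across regions for the 26 tested genes, grouped and coloured by class. All points are open because none passed an adjusted p of 0.05; Pcdh15 lies highest at 1.88 and Cdh6 lowest at −2.01.

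By class, the 11 type II cadherins split into 3 positive and 8 negative (−2.01 to 1.31, median −0.31), the 4 delta-1 protocadherins into 1 and 3 (median −0.37) and the 4 tested delta-2 protocadherins into 1 and 3 (median −0.36). In the last of these classes Pcdh8 was the positive one (0.40 ± 0.35 SE, edgeR adjusted p = 0.684). The 3 tested type I cadherins split into 2 and 1 (median 0.28), and the remaining protocadherins, Pcdh15 and Pcdh20, into 1 and 1 (1.88 and −0.33). Cdh23 gave 0.52 and Cdh13, the GPI-anchored cadherin, −0.13. The median of all genes was −0.11, and no test was made of a class.

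Within single regions no gene of the set was called, nor was any for an interaction of treatment with region (edgeR). Over all genes the shares called were 0.191% in CA1, 0.0% in CA3, 0.161% in DG and 0.0% for the interaction. At an unadjusted p under 0.05 there were 5 of 26 genes in CA1 (19.2%, against 11.2% of all genes), 1 in CA3 (3.85%, against 4.0%), 2 in DG (7.69%, against 14.1%) and 3 for the interaction (11.5%, against 8.51%). DESeq2 called 1 gene in CA1, Cdh9, and 0 in the others. Its shares of all genes were 1.58% in CA1, 0.0% in CA3, 0.796% in DG and 0.214% for the interaction. With limma on log2(TPM + 1), 1 was called in DG, Cdh15 (2.44% of all genes).

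Genes whose dissociated and control libraries did not overlap are counted here beside the share of all genes that did the same. In CA1, 7 of 26 were lower in all dissociated libraries and 0 higher (16.0% and 7.16% of all genes). The 7 were Cdh6, Cdh7, Cdh8, Pcdh10, Pcdh11x, Pcdh17 and Pcdh19. Of these, Cdh6, Cdh7 and Pcdh11x were at 0 in CA1 dissociated replicates 2 and 3, where 3 counts would be 22.2 and 9.97 CPM. CA1 control values were 7.16 to 16.6 CPM for Cdh7 and 2.68 to 3.997 CPM for Pcdh11x. The limit of replicate 2 exceeded all of these, and that of replicate 3 all those of Pcdh11x, so such 0 values do not show a lower level. In CA3, 7 were lower and 4 higher (18.2% and 15.7% of all genes), and in DG 7 were lower and 3 higher (32.2% and 8.25%). Of the 7 lower in DG, 5 (Cdh7, Cdh15, Cdh19, Cdh23 and Pcdh11x) were at 0 in both dissociated libraries, where 3 counts over both would be 4.51 CPM. The pooled control levels of Cdh19 and Pcdh11x (3.26 and 1.49 CPM) lay under that limit, and that of Cdh15, the highest of the 5, was 8.41 CPM, at least 1.86-fold higher.

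In CA1 the smallest p was that of Cdh9 (log2 fold change 3.39 ± 0.99 SE, edgeR adjusted p = 0.202). DESeq2 (3.65) and the fit with no filter on low counts (3.38) called it. The highest value, 56.1 CPM, is that of the library labelled CA1 dissociated replicate 3. The difference was 1.59 without that library (edgeR adjusted p = 0.612) and 1.66 without the 3 libraries that went against their label (edgeR adjusted p = 0.448). The other 2 dissociated CA1 libraries had 6.17 and 0.0 CPM.

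In CA3 and for the interaction the smallest p was that of Cdh23, the partner of Pcdh15 in hair cells. It had 1.79, 2.81 and 3.13 CPM in CA1 control and 5.25, 0.0 and 0.0 CPM in CA1 dissociated libraries. CA3 went from 0.486 and 1.25 CPM to 9.46 and 6.51 CPM, and DG from 11.0 and 5.6 CPM to 0.0 and 0.0 CPM. The groups were separate in CA3. In DG both dissociated libraries were at 0, but 3 counts would be 45.5 CPM in replicate 3, more than either control value. Pooled, the 50 counts of DG control (6.78 CPM) were at least 1.5-fold higher than the 4.51 CPM of 3 counts. In CA3 the log2 fold change was 3.12 ± 1.34 (SE, edgeR adjusted p = 1.0). The interaction had an edgeR adjusted p of 0.507.

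In DG the smallest p was that of Cdh4, with 0.733 and 10.9 CPM in control and 15.6 and 34.7 CPM in dissociated libraries (log2 fold change 2.16 ± 0.97 SE, edgeR adjusted p = 0.329). CA3 had 8.74 and 9.58 CPM against 2.88 and 7.44 CPM, and CA1 9.84, 26.1 and 20.1 CPM against 11.7, 41.0 and 19.8 CPM. Groups were separate in DG and CA3 and overlapped in CA1. The DG value of 15.6 CPM is again that of 1 count in the shallowest library, where Cdh3, Cdh9, Cdh13, Cdh22 and Pcdh15 also had 1.

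Genes that work with the cadherins were followed as lists. The catenins and their complex, which tie cadherins to actin, had 0 of 10 tested genes called for dissociation (median 0.08), with Ctnna1, alpha-catenin, at 0.75 ± 0.29 (SE, edgeR adjusted p = 0.288). The nectins and afadin, a parallel adhesion system, had 0 of 5. Other members of the cadherin superfamily had 0 of 16 called and 5 positive (median −0.33), with the smallest p for Celsr2 (−0.75 ± 0.22 SE, edgeR adjusted p = 0.141) and Celsr3 (−0.66 ± 0.23 SE, edgeR adjusted p = 0.233), large adhesion receptors of axon guidance. Enzymes that mature or shed cadherins had 0 of 16 called, with Adam17, a sheddase, at 1.52 ± 0.51 (SE, edgeR adjusted p = 0.198). Of 13 genes of the WAVE complex and protocadherin partners, 1 was called (0.773% of all genes). This was Wasf2, higher by 1.56 ± 0.30 (SE, edgeR adjusted p = 0.0137). Wasf1, the neuronal form of the same subunit, gave −0.62 ± 0.18 (SE, edgeR adjusted p = 0.114).

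Between regions a few partners were called, in fits of all 14 libraries. Fits without single libraries or sets of libraries are not given for them. Between CA1 and DG, 4.06% of all genes were called. The lists had 1 of 10 catenin genes, 1 of 16 other superfamily genes and 1 of 16 enzymes called. They also had 1 of 13 WAVE genes and 0 of 5 nectin genes. Between CA3 and DG, 1.77% of all genes were called. In the lists these were 1 of 16 other superfamily genes and 1 of 16 enzymes. Higher in CA1 than in DG were Ctnnd2, delta-catenin of neurons (log2 1.00 ± 0.28 SE, edgeR adjusted p = 0.0417), Clstn1, a calsyntenin (0.87 ± 0.22 SE, edgeR adjusted p = 0.0257), and Nckap1, the WAVE component that Pcdh10 binds (0.77 ± 0.21 SE, edgeR adjusted p = 0.0371). Pcsk5, a proprotein convertase, was lower in CA1 than in DG (−4.59 ± 1.20 SE, edgeR adjusted p = 0.0296) and in CA3 than in DG (−5.49 ± 1.37 SE, edgeR adjusted p = 0.0393). Fat1, a giant cadherin, was higher in CA3 than in DG (1.82 ± 0.41 SE, edgeR adjusted p = 0.0235). None of the 5 lists had a gene called between CA1 and CA3 (0.115% of all genes).

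The deposited transcript tables divide Pcdh8 into 2 forms. The longer, Pcdh8-001 (4000 bases), holds 291 coding bases (97 codons) at chr14:79768497-79768787 (minus strand, GENCODE M21 on GRCm38) that the shorter, Pcdh8-002 (3704 bases), skips. The 60 bases across the branch point are shown because the 2 forms part there, with capitals for the bases after it.
Pcdh8-001: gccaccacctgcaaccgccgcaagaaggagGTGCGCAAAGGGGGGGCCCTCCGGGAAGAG
Pcdh8-002: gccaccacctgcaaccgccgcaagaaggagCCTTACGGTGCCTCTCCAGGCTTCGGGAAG
In DG control replicate 3 the estimated counts were 2293 for the longer and 652 for the shorter form. In DG dissociated replicate 4 they were 106 and 251, so the shorter form prevailed there. DG control replicate 2 had 135 and 0.0, and DG dissociated replicate 3 had 8.0 and 0.0. In CA1 control the pairs were 45.3 and 33.7, 428 and 0.0, and 18.8 and 45.2, and in CA1 dissociated libraries 154 and 11.8, 17.0 and 0.0, and 19.0 and 0.0. CA3 control had 107 and 0.0, and 130 and 14.2, and CA3 dissociated libraries 97.0 and 0.0, and 92.0 and 0.0. The shorter form thus had estimated counts above 0.0, at 1 decimal, in 6 of 14 libraries. The forms share most of their sequence, so the split is an estimate whose error these tables do not give, and no test was made of it.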

How the data were processed

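Libraries were grouped by region and treatment from their titles. Per the submitters' processing notes, FastQC, cutadapt, kallisto and DESeq2 were used, without versions. The sources used here name no genome build, annotation or strand. The deposited transcript tables hold estimated counts and TPM per transcript, per the file headers, and the deposited gene table holds the same estimated counts added up per gene symbol by the authors as whole numbers (each within 0.5 of the sum).

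Counts were tested with edgeR 4.0.16 (R 4.3.3): filterByExpr on 6 groups (minimum count 10, total 15; 13063 genes left), TMM scaling, and the quasi-likelihood F test. Treatment across regions and region contrasts came from an additive model (10 residual degrees of freedom). Within-region contrasts and the interaction came from 6 group means (8 residual degrees of freedom). P-values were adjusted by Benjamini-Hochberg over all 13063 genes, and genes under 0.05 were called. SE is the log2 fold change divided by the square root of F. TPM of a gene is the sum of its transcripts. Coordinates are of GENCODE M21, in which 134 of 140 transcripts of the 33 genes matched by identifier and length. Upstream windows and their coordinates are from the RefSeq table, on GRCm38.p6. Pooled CPM and limits of 3 counts use no TMM factor. Of the fits, only the edgeR contrast of treatment across regions was checked on simulated counts.

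Values per library are given for genes called in any comparison, the 8 of highest control TPM, the 5 smallest p for treatment and the smallest p of each other comparison (13 genes). The genes were picked by symbol alone, but the choice of this family, and of the 12 marker and 5 partner lists, was made with earlier results of these data known. Alternatives were RLE scaling, no filter, DESeq2 1.42.0, limma 3.58.1 on log2(TPM + 1), a replicate block, control libraries only, and fits without single libraries, without the 3 shallow libraries or, chosen after seeing the data, without the 3 libraries whose markers went against their label. Limits of 3 counts cover counting error only, as reads are not independent molecules. No batch could be separated, since the authors' table gives 1 job and 1 date.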

Additional observations from a re-analysis of the deposited data

Results flagged for a closer look

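Cdh4 was lower in every dissociated library of CA3 than in the control libraries of that region, and higher in every one of DG. Cdh23 went the other way in both regions. Over all genes tested, 15.7% were higher and 18.2% lower without overlap in CA3, and 8.25% and 32.2% in DG. The share of all genes with opposite directions in CA3 and DG was not counted. Cdh4 had log2 fold changes of −0.92 in CA3 and 2.16 in DG, with an interaction p of 0.0913. Cdh23 had 3.12 in CA3 and a fitted value of −7.24 in DG, where both dissociated libraries were at 0, so that this value is no measure of size. In DG dissociated replicate 3, the shallowest library, 3 counts would be 45.5 CPM, above both control values of Cdh23, and the Cdh4 value there is 1 count, so neither direction is shown in that library at its depth. The interaction p of Cdh23 was 0.0197 (edgeR, unadjusted). Neither interaction was called (edgeR adjusted p = 0.648 and 0.507).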

How the results depend on the processing

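For dissociation across regions the number of genes called out of 26 was 1 with no filter on low counts (Pcdh15), 1 with DESeq2 (Pcdh15) and 0 to 1 when single libraries were left out (Pcdh15 without CA1 dissociated replicate 3, Cdh8 without DG dissociated replicate 4). With the replicate block it was 1 (Cdh8, −1.40), and 380 in place of 101 of all genes were called. Deviations of same-numbered libraries from their group means had correlations of −0.03, 0.01 and 0.02 in CA1, 0.07 in CA3 and −0.16 in DG. In CA3 and DG the 2 libraries of a group mirror each other around their mean, so these values cannot decide whether equal numbers mark pairs. The labels do not say so either, and the main fits did not take the numbers as pairs. Between CA1 and DG Pcdh10 was not called with RLE scaling (1.38, adjusted p = 0.0509), and the number was 0 on log2(TPM + 1) and 1 to 4 without single libraries. Between CA3 and DG it was 1 with RLE scaling, 4 with no filter, 0 on log2(TPM + 1), 4 without the 3 shallow libraries, 0 without the 3 libraries whose markers went against their label and 0 to 4 without single libraries. Within CA1 it was 1 with no filter and 1 with DESeq2 (Cdh9), and within DG 1 on log2(TPM + 1) (Cdh15). Signs turned for Cdh2 (−0.21) and Cdh23 (−0.28) on log2(TPM + 1), and for Cdh4 with the block (−0.14) and over fits without single libraries (−0.21 to 0.64). The lower bounds of Cdh6 against DG fell to 9.56-fold and 1.7-fold for CA1 and CA3 without the counts of DG control replicate 3, chosen after the values were seen. The cause of these changes was not tested. For dissociation, 3.66% of all genes were called with DESeq2 and 1.98% with no filter. Between CA3 and DG the shares were 1.65% with RLE scaling and 3.54% with no filter. Within CA1 they were 1.58% with DESeq2 and 1.56% with no filter, and within DG 2.44% on log2(TPM + 1). Over all genes, DESeq2 called 478 and the fit without the shallow libraries 14 for dissociation.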
